A study of Mus musculus with 18 samples.

Results

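The 10 genes described here encode the transcription factor Nrf2 (gene Nfe2l2), its inhibitor Keap1 and 8 genes of the antioxidant programme that Nrf2 is known for: Nqo1, Srxn1, Txnrd1, Txn1, Prdx1, Hmox1, Sqstm1 and Osgin1. They were chosen by name, with earlier results of these data known, from the 21441 genes of each expression table. All 10 were above a mean of 1 FPKM (fragments per kilobase of transcript, scaled to the depth of the library) in both tables, where 9905 genes passed in macrophages and 10147 in liver; Nqo1 passed in macrophages only through LPS+MIC-1, the group where it is high. RNA-seq was carried out on RAW264.7 cells, a transformed mouse macrophage line, and on liver of C57BL/6 mice, with 3 libraries each of control, LPS (bacterial lipopolysaccharide) and LPS+MIC-1. MIC-1 is moringa isothiocyanate-1, an electrophile from moringa. The LPS+MIC-1 macrophages received 10 µM MIC-1 per the series' design text and the study's methods, while their labels carry the mouse doses, and the LPS concentration of these cultures is not given in the sources used here. The liver groups were vehicle with saline, LPS at 10 mg/kg, and MIC-1 at 80 mg/kg for 3 days before the same LPS injection, all collected 16 h after injection. Every treated group thus received LPS, and no group received MIC-1 alone. Labels do not say whether the 3 macrophage libraries of a group came from separate cultures. For liver the study describes 3 mice a group, but the columns carry no animal numbers. The p-values thus measure the spread between these libraries, which may be technical where libraries do not come from separate cultures or mice.

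In unstressed cells Keap1 holds Nrf2 in the cytoplasm and presents it to a Cul3 ubiquitin ligase, which leads to its breakdown. Electrophiles such as isothiocyanates modify cysteines of Keap1, and Nrf2 then builds up, pairs with a small Maf protein and binds antioxidant response elements near its target genes. This control acts mainly on the Nrf2 protein, which RNA-seq does not measure, so the level of Nfe2l2 RNA is not a measure of Nrf2 activity. In liver the same programme is known for detoxification, and in macrophages for limiting oxidative damage during inflammation.

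The antioxidant response element is written TGACNNNGC, where N is any base, and a pattern with more fixed bases, shared with Maf and AP-1 sites, is TGANTCAGC. Windows from 250 bases before to 50 bases after the transcription start were read from RefSeq (build GRCm38.p6) on both strands. They matched 9 of the 10 genes with 11 windows, Txnrd1 having several starts, and none was matched for Hmox1. TGACNNNGC was found for 4 of the 9 genes (4 of their 11 windows) and in 12.4% of the 32851 windows of all genes. Its match for Srxn1 lies after the start and is not shown. TGANTCAGC was found for 3 of the 9 genes (3 of their 11 windows) and in 1.19% of all windows, and TGACTCAGC matches both patterns. The matches before the start are shown on the gene's strand with the matching bases in capitals, because these 5 genes can then be compared with their RNA levels; a match on the opposite strand reads as its reverse complement.
Nfe2l2 (chr2:75704870-75704913, minus strand, TGACNNNGC on the gene strand): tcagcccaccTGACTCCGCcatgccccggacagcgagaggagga
Srxn1 (chr2:152105454-152105512, plus strand, TGANTCAGC on the gene strand): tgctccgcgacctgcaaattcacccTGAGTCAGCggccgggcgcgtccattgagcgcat
Prdx1 (chr4:116685441-116685499, plus strand, both patterns on the opposite strand): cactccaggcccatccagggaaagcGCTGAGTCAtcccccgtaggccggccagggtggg
Txnrd1 (chr10:82859089-82859147, plus strand, TGACNNNGC on the opposite strand): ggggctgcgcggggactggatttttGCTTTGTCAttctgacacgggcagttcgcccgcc
Osgin1 (chr8:119437023-119437081, plus strand, TGANTCAGC on the opposite strand): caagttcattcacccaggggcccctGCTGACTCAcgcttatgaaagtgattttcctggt
Of the 5 genes with a match shown, Srxn1, Prdx1, Txnrd1 and Osgin1 were among the genes higher with LPS+MIC-1 than with LPS in macrophages, and Nfe2l2 was not. Nqo1, Txn1, Keap1 and Sqstm1 held neither pattern in these windows. Nqo1 and Sqstm1 were nevertheless also among the genes higher in that comparison, over all 9 libraries. The windows are short and no binding was measured, so a match is a description of letters and no site.

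Libraries are numbered by their order within a group. In the macrophage table LPS library 2 stood apart from LPS libraries 1 and 3, with median absolute log2 differences of 0.686 and 0.681 over 3680 genes, and was as close to control library 2 (0.0513) as the closest libraries of a group were to each other (0.0446 to 0.0631). The summed level of 14 LPS-response genes was 684 to 1060 FPKM in control, 30900 and 31700 in LPS libraries 1 and 3, 1050 in LPS library 2 and 6650 to 9400 in LPS+MIC-1. The study used 2 of its 3 macrophage LPS libraries and the labels do not say which, so the macrophage results of the 10 genes and the counts of gene lists are given over all 9 libraries and without LPS library 2. Control library 2 and LPS+MIC-1 library 2 also stood further from their group (0.134 to 0.189). In liver, control library 1 (0.475 and 0.546), LPS library 2 (0.527 and 0.535) and LPS+MIC-1 library 2 (0.35 and 0.349) stood apart. LPS+MIC-1 libraries 1 and 3 were close to each other (0.0644). LPS library 2 was closer to LPS+MIC-1 library 2 (0.307) than to its own group. Sample identity could not be checked, because the columns carry no sample numbers. From the steps between low values, 1 FPKM over 1 kb of transcript corresponded to about 14 to 24.3 reads in macrophages and 5.75 to 17 in liver. Marker genes of the line (7 of 8 in the table) summed to 11000 to 13500 FPKM in macrophages, and 8 hepatocyte markers to 33500 to 79700 in liver. In macrophages 10 neutrophil-list genes summed to 690 to 756 FPKM with LPS+MIC-1, 33.5, 5.08 and 43.7 with LPS and 2.52 to 3.67 in control. Only 3 of these 10 had a mean above 1 FPKM with LPS+MIC-1. Retnlg was at 0 in that group, and Ltf was at 0 in every group.

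In macrophages the genes that were higher with LPS+MIC-1 than with LPS were Nqo1, Srxn1, Txnrd1, Prdx1, Sqstm1 and Osgin1. Over all 9 libraries these 6 of the 10 genes rose and none fell, where 21.6% of all tested genes were called, 10.2% higher and 11.4% lower (limma on log2(FPKM + 0.5), Benjamini-Hochberg adjusted p below 0.05, all 3 groups in 1 fit). When LPS library 2 was left out, 8 of the 10 were called, 7 higher and 1 lower, beside 68% of all tested genes, 34% higher and 34.1% lower. Leaving aside Nqo1, whose filter rested on this difference, 5 of the other 9 were called, or 7 without LPS library 2. The median Log2FC of these 9 was 1.14 and that of all tested genes -0.0077, or 0.915 and 0.0115 without LPS library 2.

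**Figure D1:**
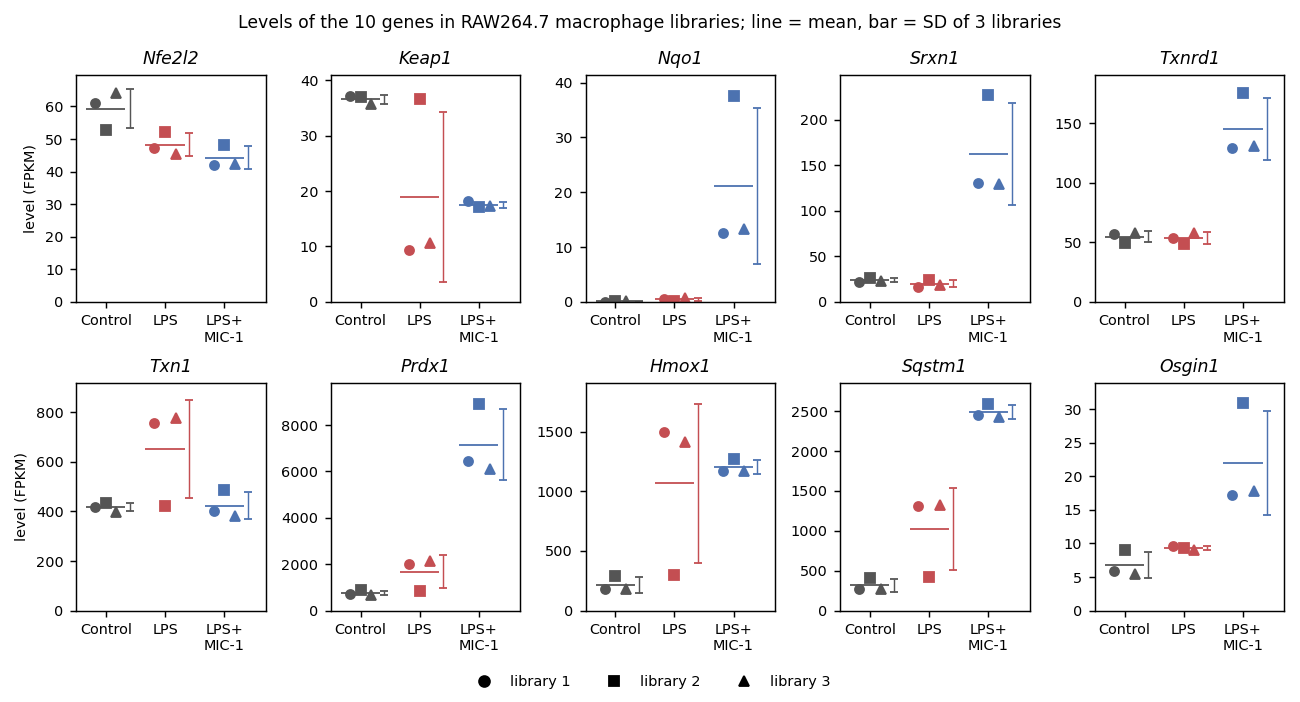
Level of each gene in FPKM (y axis, from 0) in the 3 control, LPS and LPS+MIC-1 macrophage libraries, with symbols for libraries 1 to 3, a line at the mean and a bar of 1 SD (n = 3). For Nqo1, Srxn1, Txnrd1, Prdx1, Sqstm1 and Osgin1 every LPS+MIC-1 library lies above every other library, and LPS library 2 lies at or near the controls for Keap1, Txn1, Prdx1, Hmox1 and Sqstm1.

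Nqo1 (mm9 chromosome 8, 109912125 to 109927106, minus strand) encodes a quinone reductase and is a standard reporter of Nrf2 activity. Its level was 0.03, 0.195 and 0.0923 FPKM in control macrophages, 0.57, 0.131 and 0.731 FPKM with LPS, and 12.6, 37.6 and 13.3 FPKM with LPS+MIC-1. The gene was thus near the detection limit in the first 6 libraries, where these values correspond to about 1 to 15 reads per library, and well above it in every LPS+MIC-1 library, with about 310 to 1040 reads. LPS libraries 1 and 3 lay above all controls, and LPS library 2 lay among them. The Log2FC of LPS+MIC-1 against LPS was 4.34 (SE 0.439, limma adjusted p = 0.00105), and 4.05 (SE 0.435, adjusted p = 0.000113) without LPS library 2. With no filter on low values the limma adjusted p over all 9 libraries was 0.00174. The choice of Nqo1 with earlier results of these data known still applies to that value. These values depend on the pseudocount: from the estimated reads, 1704 with LPS+MIC-1, 30 with LPS and 10 in control, the ratio of LPS+MIC-1 to LPS was 50.5 (95% exact interval 35.2 to 75.1) and that to control 209 (113 to 436), intervals that cover counting error only. The ratio to LPS libraries 1 and 3 alone was 32.9 (22.4 to 50.6). Among genes outside the 10, the levels that ran most like Nqo1 over the 9 libraries were those of Stx18 (Pearson r = 0.9971 of log2(FPKM + 0.5)), Gclm (0.9967), which encodes a subunit of the glutathione-making ligase, and Slc30a7 (0.995); these are descriptions over 9 libraries of 3 groups.

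Srxn1 (chromosome 2, 151931252 to 151937112, plus strand) encodes sulfiredoxin, which restores over-oxidised peroxiredoxins. It was measured at 22.1, 26 and 22.4 FPKM in control, 16.4, 24.4 and 18.8 FPKM with LPS, and 130, 227 and 129 FPKM with LPS+MIC-1. All LPS+MIC-1 libraries lay above all other libraries, and the control and LPS libraries overlapped. The Log2FC of LPS+MIC-1 against LPS was 2.96 (SE 0.242, adjusted p = 0.000642), and 3.12 (SE 0.237) without LPS library 2.

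Txnrd1 (chromosome 10, 82296696 to 82360469, plus strand) encodes the cytosolic thioredoxin reductase, a selenoprotein that recharges thioredoxin with NADPH. Its values were 56.7, 49.6 and 57.9 FPKM in control, 53.8, 48.3 and 58.1 FPKM with LPS, and 130, 175 and 131 FPKM with LPS+MIC-1. Control and LPS were interleaved, and LPS+MIC-1 stood above both. The Log2FC against LPS was 1.42 (SE 0.15, adjusted p = 0.00114), and 1.36 (SE 0.141) without LPS library 2.

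Txn1 (chromosome 4, 57956245 to 57969283, minus strand) encodes thioredoxin itself, the substrate of Txnrd1, and ran differently from its reductase. It stood at 420, 433 and 399 FPKM in control, at 756, 423 and 775 FPKM with LPS, and at 402, 485 and 382 FPKM with LPS+MIC-1. Libraries 1 and 3 of the LPS group were high, and LPS+MIC-1 overlapped the control. The Log2FC of LPS+MIC-1 against LPS was -0.58 (SE 0.236, adjusted p = 0.113) over all libraries. Without LPS library 2 Txn1 was called lower (-0.86, SE 0.103, adjusted p = 0.000189), a difference that fell to -0.06 when that fit was also rescaled to equal FPKM sums. It was also called lower with limma's library weights (-0.94, SE 0.0629, adjusted p = 1.13e-06).

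Prdx1 (chromosome 4, 116358149 to 116373427, plus strand) encodes a peroxiredoxin that removes hydrogen peroxide with electrons from thioredoxin, and it had the highest level of the 10 genes. It was at 722, 872 and 691 FPKM in control, 2010, 853 and 2153 FPKM with LPS, and 6438, 8925 and 6123 FPKM with LPS+MIC-1. The 3 groups formed 3 steps apart from LPS library 2, which sat among the controls. Against LPS, LPS+MIC-1 gave a Log2FC of 2.19 (SE 0.354, adjusted p = 0.00579), and 1.76 (SE 0.172) without LPS library 2.

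Sqstm1 (chromosome 11, 50012868 to 50024329, minus strand) encodes p62, an autophagy receptor that can bind Keap1. It was measured at 272, 408 and 267 FPKM in control, 1317, 424 and 1325 FPKM with LPS, and 2452, 2597 and 2429 FPKM with LPS+MIC-1, the same order of groups as for Prdx1. In LPS+MIC-1 against LPS the Log2FC was 1.46 (SE 0.422, adjusted p = 0.0431), a call that held in just 1 of the 9 fits that left out a library, the fit lacking LPS library 2, with 0.91 (SE 0.171, adjusted p = 0.00206).

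Osgin1 (chromosome 8, 121958024 to 121970156, plus strand) encodes an oxidative stress-induced growth inhibitor. Its level was low in this line, at 5.83, 9.07 and 5.48 FPKM in control and 9.57, 9.36 and 9.06 FPKM with LPS, and rose to 17.2, 30.9 and 17.9 FPKM with LPS+MIC-1. Set against LPS, its Log2FC in LPS+MIC-1 was 1.14 (SE 0.259, adjusted p = 0.0205), and the same to 2 decimals without LPS library 2 (SE 0.286). That call was lost without LPS library 1 or LPS library 3.

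Hmox1 (chromosome 8, 77617490 to 77624495, plus strand) encodes heme oxygenase-1, which breaks down heme and is held down by Bach1 as well as raised by Nrf2. It stood at 179, 292 and 179 FPKM in control, 1492, 299 and 1412 FPKM with LPS, and 1167, 1274 and 1173 FPKM with LPS+MIC-1. Apart from LPS library 2, the LPS and LPS+MIC-1 libraries were both far above control, with LPS+MIC-1 slightly the lower. The Log2FC of LPS+MIC-1 against LPS was 0.49 (SE 0.568, adjusted p = 0.552) over all libraries and -0.27 (SE 0.201, adjusted p = 0.262) without LPS library 2, so the direction turned on that library. It also turned on the scaling: under equal FPKM sums the value was 0.99 (adjusted p = 0.0903) over all libraries and 0.53 (adjusted p = 0.024) without LPS library 2, the latter called higher.

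Nfe2l2 and Keap1 form the regulator pair. The levels of Nfe2l2 (chromosome 2, 75513570 to 75542698, minus strand) were 61, 52.8 and 64.3 FPKM in control, 47.2, 52.2 and 45.4 FPKM with LPS, and 42.1, 48.3 and 42.3 FPKM with LPS+MIC-1. The treated groups overlapped each other and lay below control. Against LPS, LPS+MIC-1 gave a Log2FC of -0.12 (SE 0.12, adjusted p = 0.47), -0.07 (SE 0.101) without LPS library 2, and the sign turned under equal FPKM sums (0.37, adjusted p = 0.371). Without LPS library 2 the rescaled value was 0.73 and was called higher (adjusted p = 0.000636).

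Keap1 (chromosome 9, 21034174 to 21043776, minus strand) had levels of 37.1, 37 and 35.7 FPKM in control, 9.44, 36.6 and 10.7 FPKM with LPS, and 18.1, 17.1 and 17.4 FPKM with LPS+MIC-1. Leaving LPS library 2 aside, the 3 groups did not overlap, with control highest and LPS lowest. In LPS+MIC-1 against LPS the Log2FC was 0.17 (SE 0.435, adjusted p = 0.801) over all libraries and 0.78 (SE 0.0729, adjusted p = 5.72e-05) without LPS library 2.

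In LPS against control in macrophages, none of the 10 genes was called over all 9 libraries, where 0% of all tested genes were called: the smallest limma adjusted p was 0.0777, and 4928 genes, 6 of the 10 among them, had an unadjusted p below 0.05. Without LPS library 2, 6 of the 10 genes were called beside 75.2% of all tested genes (36.9% higher and 38.2% lower), a share above that of the 10. Hmox1 (Log2FC 2.78, SE 0.201), Sqstm1 (2.09, SE 0.171), Prdx1 (1.46, SE 0.172) and Txn1 (0.87, SE 0.103) were then higher with LPS. Keap1 (-1.82, SE 0.0729) and Nfe2l2 (-0.35, SE 0.101, adjusted p = 0.0142) were lower. Nqo1 (0.93, SE 0.435), Osgin1 (0.46, SE 0.286), Srxn1 (-0.41, SE 0.237) and Txnrd1 (0.03, SE 0.141) did not pass. In LPS libraries 1 and 3 the FPKM sums were 1137533 and 1132904, against 557136 to 652486 in the others, and under equal sums without LPS library 2 the Txn1 difference was -0.12 and did not pass, while Hmox1 (1.79), Sqstm1 (1.1), Prdx1 (0.46), Keap1 (-2.77) and Nfe2l2 (-1.33) were still called in the same direction and Srxn1 (-1.37) and Txnrd1 (-0.95) were called lower. Under that rescaling 82.8% of all tested genes were called, 71% lower, and the median Log2FC of all genes was -0.929.

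LPS+MIC-1 against control shares its LPS+MIC-1 libraries with LPS+MIC-1 against LPS, and its controls with LPS against control. Of the 10 genes 7 rose and 1 fell, where 24.8% of all tested genes were called (11.8% higher and 13% lower). With LPS library 2 left out 9 were called, 7 higher and 2 lower, where 60.3% of all tested genes were (28.1% higher and 32.2% lower). Apart from Nqo1, 7 of the other 9 genes were called, or 8 without LPS library 2. All LPS+MIC-1 libraries lay outside the control range for 9 of the 10 genes and for 66.4% of all tested genes. Nqo1 was higher by a Log2FC of 4.98 (SE 0.439), Prdx1 by 3.22 (SE 0.354), Sqstm1 by 3.01 (SE 0.422), Srxn1 by 2.71 (SE 0.242), Hmox1 by 2.51 (SE 0.568), Osgin1 by 1.6 (SE 0.259) and Txnrd1 by 1.39 (SE 0.15). Nfe2l2 was lower (-0.42, SE 0.12, adjusted p = 0.0378) and also lower without LPS library 2 (adjusted p = 0.00502). Keap1 (-1.04) had an adjusted p of 0.116 over all libraries and 1.48e-05 without LPS library 2, and Txn1 was at 0.01 (SE 0.236, adjusted p = 0.978). The lower spread without LPS library 2, not the means of these groups, made the difference, since that library is in neither group. Hmox1 kept its call in only 4 of the 9 fits that left out 1 library, and Nfe2l2 in 4.

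**Figure D2:**
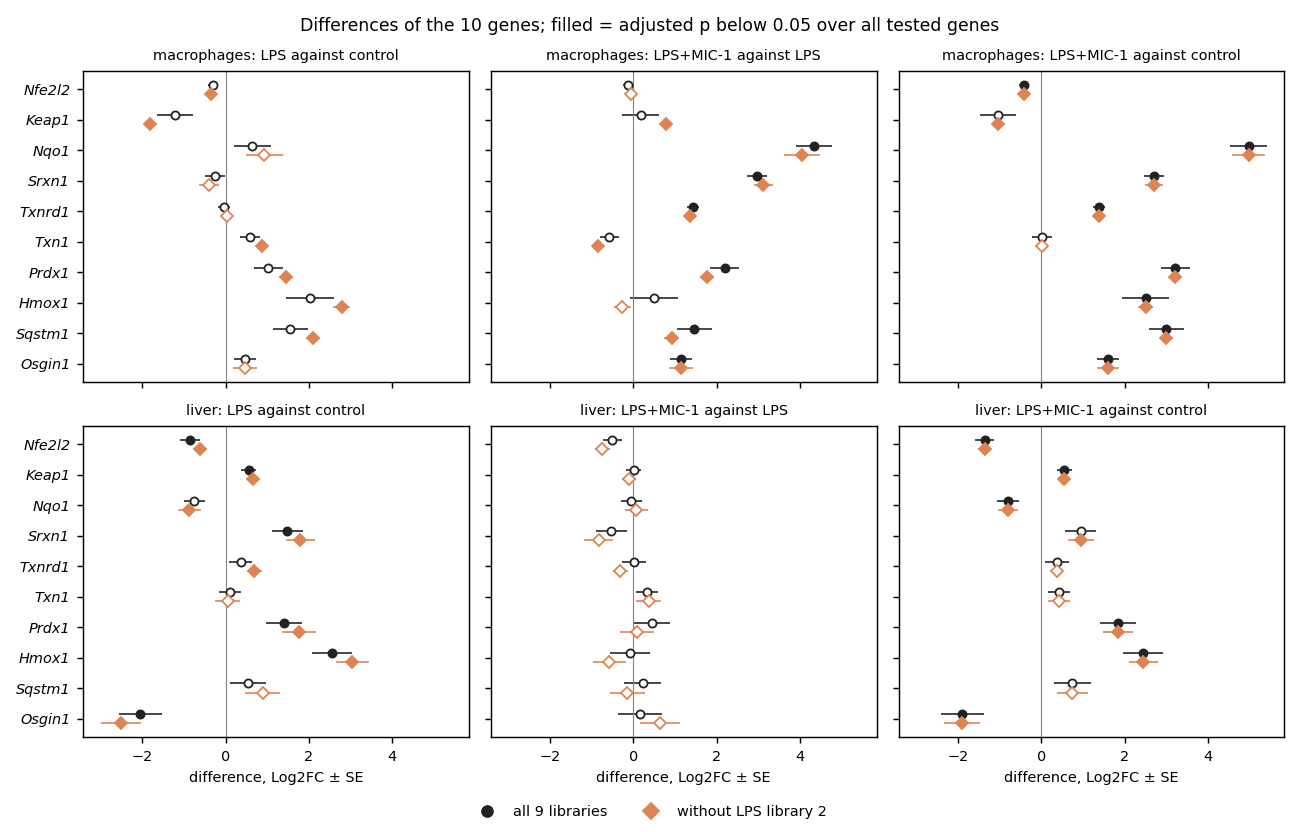
Log2FC with its SE (x axis) of each gene in 3 comparisons, macrophages above and liver below, over all 9 libraries (circles) and without LPS library 2 (diamonds); filled symbols have an adjusted p below 0.05 over all tested genes. In macrophages Nqo1 reaches 4.34 and Srxn1 2.96 in LPS+MIC-1 against LPS, and in liver no symbol of that comparison is filled.

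Libraries 1 and 3 of each macrophage group differed from each other by little more than the reads' sampling error, with a variance of the log ratio 1.59 to 2.1 times that expected from the estimated reads against 7.36 to 14.8 for library 2 of control and LPS+MIC-1 with its group. If libraries 1 and 3 are averaged as 1 sample, none of the 10 genes is called in any macrophage comparison (0 of 9905 genes), the Nqo1 value in LPS+MIC-1 against LPS being 4.73 with an adjusted p of 0.115. In liver, LPS+MIC-1 libraries 1 and 3 had a variance 1.99 times that expected, against 36.5 and 31.9 for library 2 with them. The liver libraries were not averaged.

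In liver Hmox1, Srxn1, Prdx1 and Keap1 were higher with LPS than in control, and Osgin1 and Nfe2l2 were lower. In LPS against control over all 9 libraries 4 of the 10 rose and 2 fell, beside 34.7% of all tested genes called, 19.2% higher and 15.5% lower, so the share of the 10 that rose was above the background and the share that fell was close to it. Without LPS library 2, 8 of the 10 were called beside 49% of all tested genes. In whole liver, fewer cells of a type and less RNA per cell cannot be told apart.

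**Figure D3:**
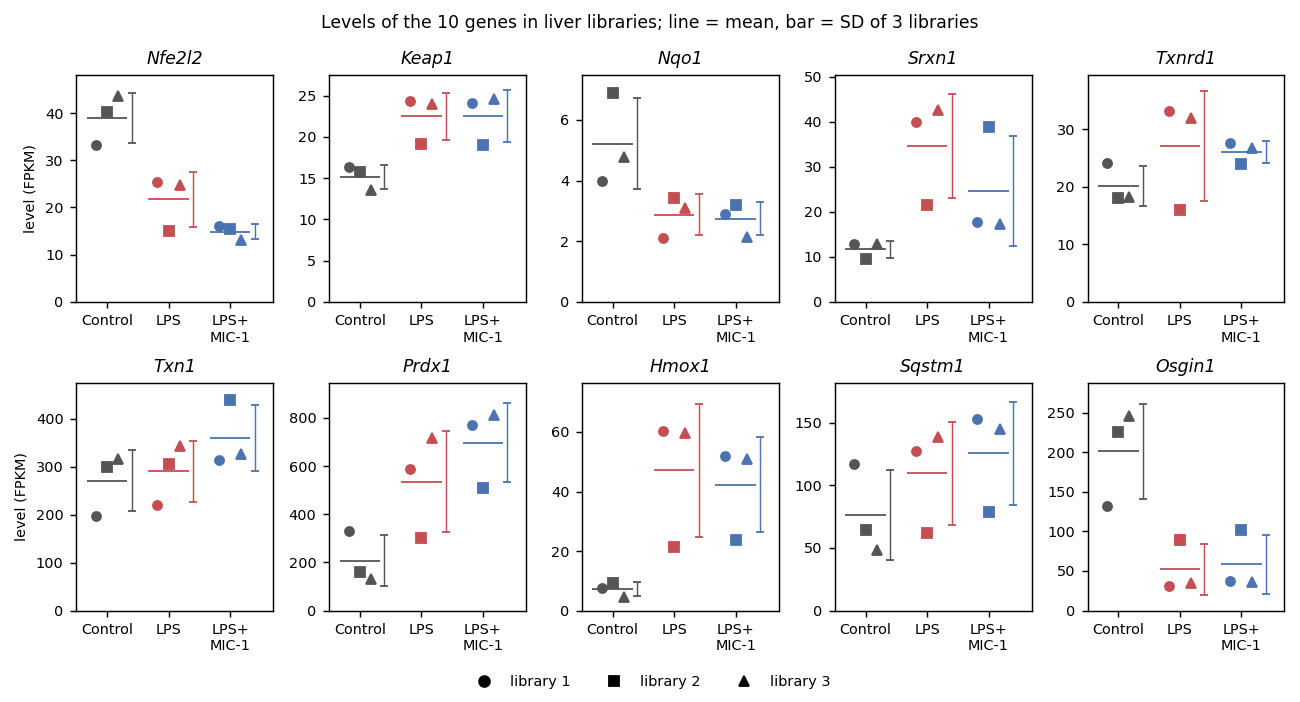
Level of each gene in FPKM (y axis, from 0) in the 3 control, LPS and LPS+MIC-1 liver libraries, with symbols for libraries 1 to 3, a line at the mean and a bar of 1 SD (n = 3). Hmox1 is above control in every treated library, Osgin1, Nqo1 and Nfe2l2 are below it, and library 2 of both treated groups lies away from libraries 1 and 3 for Srxn1, Osgin1, Hmox1 and Sqstm1.

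Hmox1 had the largest difference of the 10 in liver. Its level was 7.5, 9.25 and 4.64 FPKM in control, 60.3, 21.2 and 59.7 FPKM with LPS, and 52.1, 23.8 and 50.9 FPKM with LPS+MIC-1. Every treated library was above every control, and library 2 was the lowest of both treated groups. The Log2FC of LPS against control was 2.54 (SE 0.478, adjusted p = 0.00698), and this call held in all 9 fits that left out 1 library. The genes outside the 10 whose levels ran most like Hmox1 over the 9 liver libraries were Stat3 (r = 0.9933), a transcription factor of the acute phase response, Rfwd3 (0.991) and Fam59a (0.9895).

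Srxn1 was at 12.8, 9.46 and 12.8 FPKM in control liver, 40, 21.4 and 42.6 FPKM with LPS, and 17.8, 38.8 and 17.3 FPKM with LPS+MIC-1. All treated libraries were above control, but within the treated groups LPS library 2 was near LPS+MIC-1 libraries 1 and 3, and LPS+MIC-1 library 2 near LPS libraries 1 and 3. The summed marker genes of the macrophage line ran the same way in these liver libraries (7 of 8 in the table, with Emr1 at 0 in LPS+MIC-1). They were at 628, 135 and 610 FPKM with LPS, 132, 440 and 135 FPKM with LPS+MIC-1 and 33.3 to 50.3 in control. The summed markers of Kupffer cells, the resident macrophages of liver, did not run this way. They were at 124, 153 and 145 FPKM with LPS, 226, 157 and 234 FPKM with LPS+MIC-1 and 81.9 to 92.7 in control. The summed neutrophil markers (10 of 12) were 354 to 451 FPKM with LPS, 193, 465 and 205 FPKM with LPS+MIC-1 and 37.7 to 53.1 in control, and the part of these cells in the Srxn1 levels was not tested. The Log2FC of Srxn1 was 1.48 (SE 0.371, adjusted p = 0.0181) for LPS against control and 0.95 (SE 0.371, adjusted p = 0.0742) for LPS+MIC-1 against control.

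Prdx1 stood at 329, 160 and 132 FPKM in control liver, 589, 303 and 715 FPKM with LPS, and 772, 511 and 810 FPKM with LPS+MIC-1. LPS library 2 lay below control library 1, and all LPS+MIC-1 libraries lay above control. The Log2FC was 1.4 (SE 0.429, adjusted p = 0.036) for LPS and 1.84 (SE 0.429, adjusted p = 0.0129) for LPS+MIC-1 against control, the former not called under equal FPKM sums (1.03, adjusted p = 0.06). Of the 9 fits that left out 1 library, the LPS call held in only 3 and the LPS+MIC-1 call in 8. With only the 2 groups in the fit, LPS against control did not pass (limma adjusted p = 0.0726).

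Keap1 was at 16.3, 15.7 and 13.5 FPKM in control liver, 24.4, 19.2 and 23.9 FPKM with LPS, and 24.1, 19 and 24.6 FPKM with LPS+MIC-1. All treated libraries were above control, by a Log2FC of 0.55 (SE 0.179) in both comparisons, with adjusted p of 0.0442 for LPS and 0.0423 for LPS+MIC-1. Under equal FPKM sums these values were 0.19 and -0.088 and neither was called. In each comparison Keap1 kept its call in only 3 of the 9 fits that left out 1 library. With only the 2 groups in the fit, LPS against control did not pass (limma adjusted p = 0.0802).

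Osgin1, a gene with a much higher level in liver than in the macrophage line, went down. It stood at 132, 225 and 245 FPKM in control, 31.4, 89.5 and 35.2 FPKM with LPS, and 37.1, 101 and 36.6 FPKM with LPS+MIC-1. No treated library reached the control range, and library 2 was the highest of both treated groups. The Log2FC was -2.05 (SE 0.518, adjusted p = 0.0185) for LPS and -1.9 (SE 0.518, adjusted p = 0.0226) for LPS+MIC-1 against control. In each comparison Osgin1 kept its call in 5 of the 9 fits that left out 1 library. Summed hepatocyte markers were 41700 to 79700 FPKM in control, 34000 to 44100 with LPS and 33500 to 44400 with LPS+MIC-1, and their part in the Osgin1 values was not tested.

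Nfe2l2 was at 33.2, 40.2 and 43.6 FPKM in control liver, 25.4, 15.1 and 24.7 FPKM with LPS, and 16.1, 15.4 and 13.1 FPKM with LPS+MIC-1. Control was above all treated libraries, and LPS+MIC-1 lay below LPS libraries 1 and 3 but overlapped LPS library 2. The Log2FC was -0.86 (SE 0.233, adjusted p = 0.0239) for LPS and -1.36 (SE 0.233, adjusted p = 0.00462) for LPS+MIC-1 against control, and the latter held in all 9 fits that left out 1 library.

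Nqo1 was low in liver too, at 3.98, 6.9 and 4.79 FPKM in control, 2.1, 3.41 and 3.1 FPKM with LPS, and 2.88, 3.19 and 2.15 FPKM with LPS+MIC-1, from about 38.7 to 67.9 reads per library. All treated libraries lay below control and the treated groups overlapped. The Log2FC was -0.75 (SE 0.259, adjusted p = 0.0524) for LPS, which did not pass, and -0.8 (SE 0.259, adjusted p = 0.0411) for LPS+MIC-1 against control. The latter call held in only 3 of the 9 fits that left out 1 library.

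Txnrd1, Txn1 and Sqstm1 were not called in liver over all 9 libraries. Txnrd1 was at 24.2, 18.1 and 18.1 FPKM in control, 33.2, 16 and 31.9 FPKM with LPS, and 27.6, 23.9 and 26.8 FPKM with LPS+MIC-1. Txn1 was at 197, 299 and 316 FPKM in control, 221, 305 and 344 FPKM with LPS, and 314, 439 and 327 FPKM with LPS+MIC-1. For Sqstm1 the values were 117, 64.4 and 48.4 FPKM in control, 128, 62.3 and 139 FPKM with LPS, and 153, 78.4 and 145 FPKM with LPS+MIC-1. The groups overlapped for each of these genes, and without LPS library 2 Txnrd1 was higher with LPS than in control (Log2FC 0.69, SE 0.174, adjusted p = 0.015).

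In LPS+MIC-1 against control in liver, 3 of the 10 genes rose (Hmox1, Prdx1 and Keap1) and 3 fell (Osgin1, Nfe2l2 and Nqo1), beside 36.4% of all tested genes called, 20.1% higher and 16.3% lower. All LPS+MIC-1 libraries lay outside the control range for 7 of the 10 and for 54.6% of all tested genes. Without LPS library 2 the count was 7, with Srxn1 added (adjusted p = 0.0439), beside 45.2% of all tested genes. Hmox1 was higher by 2.45 (SE 0.478, adjusted p = 0.00712).

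In LPS+MIC-1 against LPS in liver, none of the 10 genes was called, and 0% of the 10147 tested genes were: the smallest limma adjusted p was 0.0546, and 364 genes but none of the 10 had an unadjusted p below 0.05. The Log2FC of the 10 ran from -0.53 (Srxn1, SE 0.371) and -0.50 (Nfe2l2, SE 0.233) to 0.44 (Prdx1, SE 0.429), with a median of 0.00937 beside -0.0093 for all genes. For Nqo1, the leading gene of this comparison in macrophages, the liver value was -0.05 (SE 0.259). Without LPS library 2 the 10 were also not called (0.355% of all tested genes), and with limma's library weights Srxn1 (-1.14, adjusted p = 0.00219) and Nfe2l2 (-0.72, adjusted p = 0.00338) were lower with LPS+MIC-1, where 30.2% of all tested genes were called.

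In each liver comparison against control the number of the 10 that were called moved with single libraries. For LPS against control it was 1 without control library 2 (19.2% of all tested genes called) or LPS library 3 (13.8%), and 2 without control library 3 (19.4%) or LPS library 1 (16.4%). It was 4 without LPS+MIC-1 library 1 (27.7%) or 3 (28%) and 8 without LPS library 2 (49%). For LPS+MIC-1 against control it was 2 without LPS+MIC-1 library 3 (20.1%) and 3 without control library 2 (21.7%), control library 3 (22.6%) or LPS+MIC-1 library 1 (21.1%). The number called over all genes thus moved with the same libraries.

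Genes around the 10 were taken from 3 lists. Their counts for LPS+MIC-1 against LPS in macrophages stand beside 21.6% of all tested genes called over all 9 libraries (10.2% higher, 11.4% lower) and 68% without LPS library 2 (34% and 34.1%). List genes given below as higher or lower over all 9 libraries in that comparison were called in the same direction without LPS library 2. Of the partners and turnover factors of Nrf2 (16 of 17 in the tables, 12 tested in macrophages), 2 rose and 1 fell in LPS+MIC-1 against LPS, with a median Log2FC of -0.0421. Syvn1, an ER ubiquitin ligase known to act on Nrf2, was at 17.5, 28.5 and 17.3 FPKM with LPS and 52.8, 55.1 and 51.7 FPKM with LPS+MIC-1 (Log2FC 1.35, adjusted p = 0.00328). Dpp3, which binds Keap1, rose by 0.72 (adjusted p = 0.0497), and Rbx1, the RING subunit of the Cul3 ligase, fell by 0.71 (adjusted p = 0.0234). Mafk, a small Maf partner, was at 53, 15.5 and 51.6 FPKM with LPS and 13.9, 17.4 and 13.5 FPKM with LPS+MIC-1 (Log2FC -1.21, adjusted p = 0.0735), and Cul3 had -0.44 (adjusted p = 0.196). Leaving out LPS library 2 made these counts 2 higher and 9 lower with a median of -0.5, Mafk (-1.79) and Cul3 (-0.74) among the lower.

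Of the other thioredoxin, peroxiredoxin and glutaredoxin genes (19 of 24 tested in macrophages), 2 rose and 5 fell in LPS+MIC-1 against LPS, with a median Log2FC of -0.358. Txnip, which binds and inhibits thioredoxin, fell from 428, 346 and 443 FPKM to 156, 136 and 155 FPKM (Log2FC -1.44, adjusted p = 0.00162). Prdx2 (-0.89), Prdx4 (-0.87), the peroxiredoxin of the ER, and Glrx3 (-0.94) were lower, while Prdx1 was higher. Msrb2, a mitochondrial methionine sulfoxide reductase, was higher (1.33, adjusted p = 0.0456). With LPS library 2 left out, 4 were higher and 13 lower, with a median of -0.556.

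Of the other known Nrf2 targets (31 of 42 tested in macrophages), 14 rose and 3 fell in LPS+MIC-1 against LPS, with a median of 0.689; without LPS library 2 these were 19 and 6, with a median of 0.76. Slc7a11, the cystine importer, was at 1.69, 2.6 and 1.56 FPKM in control, 13.7, 2.27 and 13.8 FPKM with LPS, and 80.8, 125 and 79.7 FPKM with LPS+MIC-1 (Log2FC against LPS 3.5, adjusted p = 0.00705, and 2.71 without LPS library 2). Gclm went from 33.4, 23.9 and 36.3 FPKM with LPS to 117, 225 and 113 FPKM (Log2FC 2.21), and library 2 was the highest, as for Nqo1 and Srxn1. Cat, encoding catalase, rose by 2.16. Pgd, of the NADPH-making pentose phosphate pathway, rose by 1.83 (adjusted p = 0.0272), and Gsr, glutathione reductase, by 1.73. In LPS against control none of these lists had a call over all 9 libraries, and without LPS library 2 the Nrf2 targets had 13 higher and 9 lower, a share of the 31 below the 75.2% of all tested genes. In LPS+MIC-1 against control they had 13 higher and 1 lower beside 24.8% of all tested genes, or 22 and 7 beside 60.3% without LPS library 2.

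**Figure D4:**
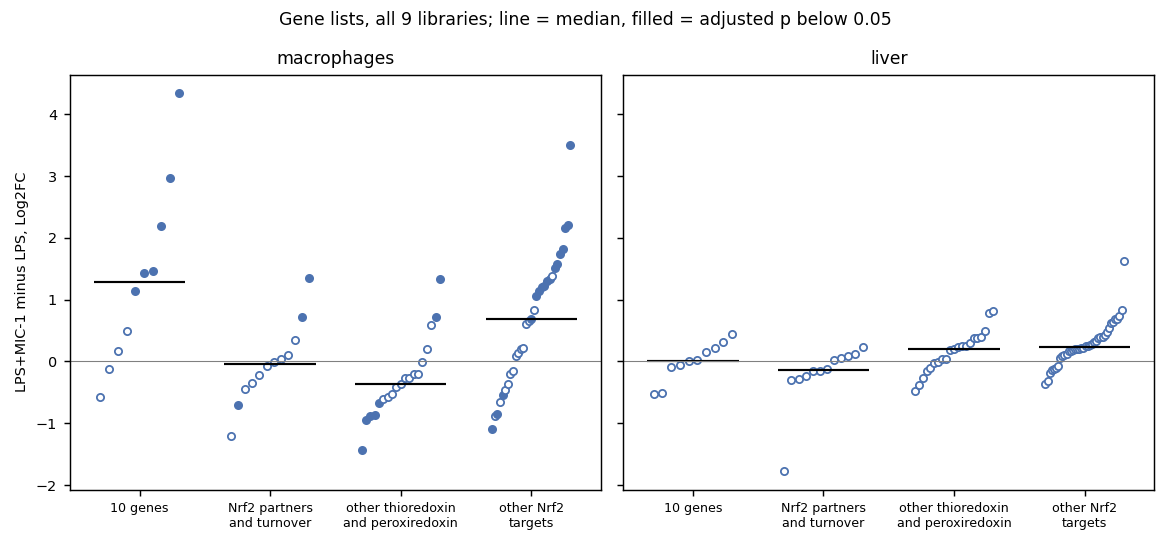
Log2FC of LPS+MIC-1 against LPS (y axis) for every tested gene of the 10 and of the 3 lists, over all 9 libraries, macrophages left and liver right; the line is the median and filled points have an adjusted p below 0.05. In macrophages the medians are 1.28 for the 10 genes, -0.0421, -0.358 and 0.689 for the lists, and in liver no point is filled.

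In liver none of the tested genes of these lists was called in LPS+MIC-1 against LPS over all 9 libraries or without LPS library 2. In LPS against control the other Nrf2 targets had 5 higher and 15 lower of 38 tested (median -0.363), the thioredoxin and peroxiredoxin genes 4 higher and 1 lower of 21 (median 0.714), and the partners 0 and 2 of 12 (median 0.0325), beside a median of 0.147 for all genes, of which 34.7% were called (19.2% higher, 15.5% lower). The shares of the thioredoxin list and of the partners were below that. Catalase led the lower ones, at 1110, 685 and 814 FPKM in control, 120, 321 and 116 FPKM with LPS, and 313, 192 and 308 FPKM with LPS+MIC-1 (Log2FC of LPS against control -2.37, adjusted p = 0.00578). Gstm2, a glutathione transferase, was lower by 1.18 on the log2 scale (adjusted p = 0.0373), and Sesn2, a stress-induced sestrin, was higher (1.39, adjusted p = 0.0312). For LPS+MIC-1 against control the other Nrf2 targets had 6 higher and 12 lower of 38 (median -0.18, beside 0.15 for all genes, of which 36.4% were called), with Cat lower (-1.69, adjusted p = 0.0157). Cbr3, a carbonyl reductase, was at 0.0978, 1.03 and 0.335 FPKM in control and 2.31, 2.66 and 2.44 FPKM with LPS+MIC-1, while LPS libraries held 0.413 to 0.562 FPKM. It passed the filter on low values only through LPS+MIC-1, so its Log2FC of 1.7 against control is a description and its call, one of the 6, no support. Akr1b8, an aldo-keto reductase, was higher by 1.31 (adjusted p = 0.0147). Neither was called against LPS (adjusted p = 0.997 for both).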

How the data were processed

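RNA was sequenced at BGI, and the authors quantified transcripts by pseudoalignment with Kallisto v0.45.0 against a RefSeq index of mm9 and made gene-level values of them with tximport and DESeq2 v1.20.0. The authors deposited these as FPKM, scaled between libraries by size factors. FPKM is per length, so levels may be compared between genes, while FPKM sums differ between libraries. The 6 deposited comparisons hold the authors' mean counts, fold changes and p-values and were not used. Column headers repeat the group names with no replicate number, so libraries were numbered by their order in the table; 0 columns were left without a group.

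Each table was tested alone with limma v3.58.1 in R v4.3.3 (lmFit, contrasts, eBayes with trend) on log2(FPKM + 0.5) of genes with a mean FPKM above 1, with Benjamini-Hochberg adjustment over all tested genes, and calls at an adjusted p below 0.05 with no fold minimum. A Log2FC on this scale understates the change of low genes. The named genes are the 10 genes, in each table the 3 genes whose levels run most like the gene with the largest difference between group means, and of each list at most 5 genes with the largest absolute Log2FC between LPS+MIC-1 and LPS. The genes, lists and tests were chosen with earlier results of these data known. Reads behind a value were estimated from the steps between values under 0.1 FPKM of genes with 1 transcript over 1000 bases, less 180 bases of each length. Gene positions are from GENCODE vM1 on mm9. The fit was tested on simulated data for LPS+MIC-1 against LPS. With the liver spread, 16% of genes changed by a Log2FC of 1 and 65% of those changed by 2 were called. With the macrophage spread, taken without LPS library 2, these shares were 82% and 97%. Among unchanged genes 3 were called with the liver spread and 17 with the macrophage spread. The macrophage shares do not describe the fit over all 9 libraries, whose median SE in this comparison was 0.229, against 0.122 without LPS library 2.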

Additional observations from a re-analysis of the deposited data

Results flagged for a closer look

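For 3 of the 10 genes every LPS+MIC-1 library lay on 1 side of all controls in macrophages and on the other side in liver. All LPS+MIC-1 libraries lay outside the control range for 66.4% of all tested genes in macrophages and 54.6% in liver. How many of all genes took opposite sides in macrophages and liver was not counted. The tables were normalized separately, and the difference between the tables was not tested. The cells received MIC-1 at 10 µM and the mice at 80 mg/kg, and the time of MIC-1 in culture is not given in the sources used here. Keap1 was lower in macrophages (Log2FC of LPS+MIC-1 against control -1.04). The unweighted fit over all 9 libraries did not call it, while it was called without LPS library 2, with only the 2 groups or with library weights. Keap1 was higher in liver (0.55), where equal FPKM sums turned the value to -0.088. Nqo1 was higher in macrophages (4.98) and lower in liver (-0.80), where its call held in only 3 of the 9 fits that left out 1 library. Osgin1 was higher in macrophages (1.60) and lower in liver (-1.90), where its call held in 5 of these 9 fits.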

How the results depend on the processing

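No paired analysis was possible because the columns carry no replicate number. Limits are the 3 libraries a group, of which libraries 1 and 3 are close, and the low depth of Nqo1. The mean above 5 FPKM leaves out liver Nqo1. Of 1167 values of single genes under alternatives, 963 kept direction and call, 52 gained a call, 99 lost it and 53 changed sign. The cause of these changes was not tested. The settings named for library 2 of LPS with equal sums, and for 2 liver libraries left out together, were chosen after seeing the data.

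Under equal FPKM sums the median of all genes moved to -0.652 (LPS against control), 0.442 (LPS+MIC-1 against LPS) in macrophages and to -0.176, -0.263 and -0.429 (LPS+MIC-1 against control) in liver, and the share of calls that were higher went from 47.2% to 77.6% in LPS+MIC-1 against LPS of macrophages, from 55.3% to 31.2% in LPS against control of liver and from 55.2% to 17.6% in LPS+MIC-1 against control of liver. Signs changed in macrophages for Txn1 (-0.094 in LPS against control, -0.18 in LPS+MIC-1 against control), Osgin1 (-0.17 in LPS against control) and Nfe2l2 (0.37 in LPS+MIC-1 against LPS), and in liver for Txn1 (-0.26 in LPS and -0.23 in LPS+MIC-1 against control), Keap1 (-0.28 against LPS, -0.088 against control), Txnrd1 (-0.27 against LPS, -0.27 against control), Sqstm1 (-0.070) and Osgin1 (-0.13) in LPS+MIC-1 against LPS. Without LPS library 2 as well, 7 of the 10 macrophage genes were called in LPS against control (82.8% of all tested genes), with Txn1 at -0.12, Osgin1 at -0.47, Nfe2l2 at 0.73 against LPS and Txn1 at -0.18 in LPS+MIC-1 against control.

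Library weights gave 9 calls in macrophage LPS against control (84.3% of all tested genes) and 2 in liver LPS+MIC-1 against LPS (30.2%), and changed the sign of Hmox1 (-0.29) and Txn1 (-0.067 against control) in macrophages and of Txn1 (-0.10 for LPS against control), Nqo1 (0.0063) and Txnrd1 (-0.23) in liver. Averaging libraries 1 and 3 gave 0 calls in LPS+MIC-1 against LPS and 0 against control, with Keap1 at -0.14. A median-of-ratios scaling put liver Keap1 at -0.0096. With only the 2 groups in the fit 3 liver genes were called in LPS against control (23.2% of all tested genes). In macrophages the same setting ended the calls of Sqstm1 (limma adjusted p = 0.121) and Osgin1 (0.055) in LPS+MIC-1 against LPS. There 5.59% of all tested genes were called. The adjusted p below 0.01 with an absolute Log2FC above 1 left 1 call in liver LPS against control (10.9% of all tested genes). It left 2 in liver LPS+MIC-1 against control (13.5%).

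Leaving out 1 library moved the number of calls from 0 to 6 (macrophage LPS against control), from 4 to 8 (LPS+MIC-1 against LPS) and from 6 to 9 (LPS+MIC-1 against control). The upper ends, all without LPS library 2, stand beside 75.2%, 68% and 60.3% of all tested genes. The lower ends stand beside at most 0.0101%, 9.74% and 10%. In liver the number was 1 to 9, 0 to 1 and 2 to 8, the upper ends with control library 1 and LPS library 2 left out together. These upper ends stand beside 58.5%, 3.67% and 55.5% of all tested genes, and the lower ends beside at most 19.2%, 0.355% and 20.1%. The sign of small values changed: in macrophages Txnrd1 ran from -0.10 to 0.034 (LPS against control), Keap1 from -0.17 to 0.78 and Hmox1 from -0.27 to 0.89 (LPS+MIC-1 against LPS) and Txn1 from -0.091 to 0.082 (LPS+MIC-1 against control), in liver Txn1 from -0.16 to 0.29 (LPS against control), and in liver LPS+MIC-1 against LPS Keap1 from -0.11 to 0.12, Nqo1 from -0.22 to 0.089, Txnrd1 from -0.32 to 0.20, Hmox1 from -0.58 to 0.27, Sqstm1 from -0.14 to 0.53 and Osgin1 from -0.33 to 0.63. The 4 macrophage genes called in LPS+MIC-1 against LPS in every fit without 1 library were Nqo1, Srxn1, Txnrd1 and Prdx1.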
